A study of Mus musculus with 6 samples.

Results

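Myl9, Acta2 and Actc1 encode contractile proteins, and 3 of the 10290 genes with a symbol of their own in the deposited table are described here. They were selected by symbol, with every probe set annotated to exactly 1 of the names kept whether its signal was low or high, and each gene had 1 such probe set among the 19551 kept after the array controls were set aside. The names, Myl9 (Entrez Gene 98932), Acta2 (11475) and Actc1 (11464), were proposed with the difference between mutant and control arrays known, so that difference is described here without a test. RNA came from the anterior part of the presomitic mesoderm (PSM), which segments into somites, of mouse embryos at embryonic day 8.75. The mutant group was R26R AC/AC;T-Cre and the control group R26R AC/AC, so both groups carried the AC allele at the ROSA26 locus and only the mutant carried T-Cre, a recombinase expressed under the regulatory sequence of T (Brachyury) in the primitive streak and the mesoderm it forms. The labels do not spell out AC; knowledge of the study has it as A-CREB, which acts as a dominant negative against CREB transcription factors and is made once Cre has acted. The strain background is labelled C57BL6/6J for all embryos. Each group had 3 pools of 3 PSMs, 1 pool per array, and no pool carried T-Cre without the AC allele.

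Contraction in muscle and in other cells is driven by myosin motors that pull on actin filaments. Acta2 encodes the smooth muscle alpha-actin and Actc1 the cardiac alpha-actin. Both are also expressed for a time in embryonic muscle precursors that later switch to other actins. Myl9 encodes a regulatory light chain of smooth muscle and non-muscle myosin, whose phosphorylation by myosin light chain kinase permits contraction. Actin and smooth muscle genes are textbook targets of serum response factor (SRF), which binds the CArG box and works with the cofactors myocardin and the myocardin-related factors Mrtfa and Mrtfb. CREB, named in the title of the series, binds the cyclic AMP response element TGACGTCA or its shorter form TGACG.

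The promoter windows of the 3 genes are shown because both kinds of motif can be read in them. They are the RefSeq windows of GRCm38.p6, from 250 bases before to 50 bases after the gene start, on the gene's strand, 5' to 3', and all 3 genes had 1. Capitals mark a CArG box or a CArG box with 1 of its central bases off the A or T of the consensus. Myl9 is at chr2:156775214-156775513 on the plus strand, Acta2 at chr19:34255324-34255623 on the minus strand and Actc1 at chr2:114052826-114053125 on the minus strand.
Myl9: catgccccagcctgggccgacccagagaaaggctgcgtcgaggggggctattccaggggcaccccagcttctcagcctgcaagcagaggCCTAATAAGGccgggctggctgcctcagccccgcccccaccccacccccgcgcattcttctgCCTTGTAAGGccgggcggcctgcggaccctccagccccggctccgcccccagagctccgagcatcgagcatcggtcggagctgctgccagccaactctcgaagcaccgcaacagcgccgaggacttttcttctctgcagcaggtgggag
Acta2: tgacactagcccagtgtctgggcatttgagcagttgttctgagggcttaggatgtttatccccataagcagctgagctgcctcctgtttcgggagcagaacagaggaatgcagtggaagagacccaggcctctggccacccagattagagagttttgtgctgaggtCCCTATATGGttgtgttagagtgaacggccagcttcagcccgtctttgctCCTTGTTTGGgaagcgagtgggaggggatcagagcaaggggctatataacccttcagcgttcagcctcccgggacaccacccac
Actc1: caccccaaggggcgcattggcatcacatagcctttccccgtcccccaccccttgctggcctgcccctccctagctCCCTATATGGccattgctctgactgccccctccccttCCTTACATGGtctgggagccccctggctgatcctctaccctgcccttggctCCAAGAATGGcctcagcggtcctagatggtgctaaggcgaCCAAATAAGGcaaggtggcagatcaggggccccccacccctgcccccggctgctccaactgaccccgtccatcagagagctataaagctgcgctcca

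Each of the 3 windows held at least 2 matches of this kind. In Myl9 they were CCTAATAAGG, a CArG box, at bases 90 to 99 of the window, and CCTTGTAAGG, with 1 central base off, at bases 152 to 161. Acta2 had no exact match but CCCTATATGG at bases 167 to 176 and CCTTGTTTGG at bases 217 to 226, both with 1 central base off. Actc1 had the CArG box CCAAATAAGG at bases 204 to 213 and 3 matches with 1 base off, CCCTATATGG at 76 to 85, CCTTACATGG at 113 to 122 and CCAAGAATGG at 164 to 173. The letters of the match upstream in Actc1 and of the one upstream in Acta2 were identical. Over 32851 RefSeq windows of 300 bases, 1.63% held a CArG box 9.98% held at least 1 match with at most 1 central base off, and 0.822% held 2 or more. TGACGTCA and TGACG, searched on both strands, were not among the letters of the 3 windows, against 1.79% and 20.8% of all windows that held them. No overlap between the motifs occurred in the 3 windows. These matches are a description of the letters, and binding was not measured.

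**Figure D1:**
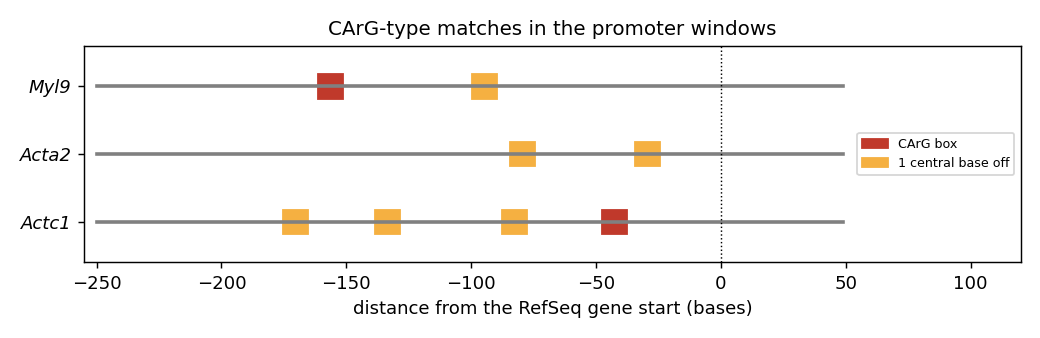
Positions of the CArG-type matches in the promoter windows of Myl9, Acta2 and Actc1, as distance in bases from the RefSeq gene start (dotted line). Red blocks are CArG boxes and orange blocks are matches with 1 central base off; Myl9 and Actc1 each have a red block, Acta2 has orange blocks only.

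Median signal lay between 491 and 535 on the 6 arrays. Mutant 1, mutant 2 and control 1 had ratios of 3' to 5' signal of 24.0 to 29.1 for the spiked dap control, against 12.5 to 13.6 in mutant 3, control 2 and control 3, and are called high-ratio arrays below. Control 1 also read 531 for the bioB hybridization control, against 62.4 to 108 on the other arrays. The transcript of the targeted locus, Gt(ROSA)26Sor, read 98.1, 62.9 and 91.7 in the mutant pools and 824, 356 and 865 in the control pools, which parted the arrays by their labels. Of 12 PSM markers 11 were in the table, of which 1, Ripply2, was called lower (−1.56, adjusted p by limma = 0.000987), against 0.466% of all genes. Of the 11, 0 had a positive difference, and 6 had an unadjusted p under 0.05 by limma. For 4 the mutant pools lay below the control pools without overlap, against 9.49% of all genes. The median difference of the 11 was −0.51. Their summed signal was 9315 to 15291 in mutant and 16090 to 17300 in control pools.

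All 3 contractile genes read higher in every mutant pool than in any control pool. On average Actc1 was 3.25-fold, Myl9 2.21-fold and Acta2 1.57-fold as high in mutant as in control PSM. No overlap with the mutant pools above was also seen for 10.9% of all 19551 probe sets, and with the mutant pools below for 8.19%, and nothing is read from the count of 3, because the genes were chosen on this contrast. For the same reason no p is given for them. The intervals below, and the shares of probe sets with a difference at least as high, are descriptions only. In these bulk pools, more cells that express a gene and more of its RNA per cell cannot be told apart.

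Myl9, the myosin light chain, had signals of 959.9, 855 and 1000.2 in mutant pools 1, 2 and 3, against 281, 491 and 552 in control pools 1, 2 and 3. The mutant values lay close together, with the highest 1.17 times the lowest, while the control values spread 1.96-fold, with control 1 the lowest. Means were 938 ± 74.9 (SD) in mutant and 441 ± 142 in control, n = 3 pools each. On the log2 scale mutant minus control was 1.14 (SE 0.23), which is a fold of 2.21 with a 95% confidence interval of 1.55 to 3.13. The lowest mutant pool was 1.55 times the highest control pool. Of all probe sets, 0.378% had a difference at least as high.

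Acta2, the smooth muscle actin, had signals of 4152, 3127 and 3089 in the mutant pools, against 2110.1, 2147 and 2283 in the control pools. Here the control pools were the tight group, with a highest value 1.08 times the lowest, and mutant 1 stood above the other 2 mutant pools. Means were 3456 ± 603 (SD) in mutant and 2180.1 ± 90.9 in control, n = 3 each. The log2 difference was 0.65 (SE 0.13), a fold of 1.57 (95% confidence interval 1.28 to 1.93). Acta2 had the smallest difference of the 3 genes and the smallest SE. Its level lay at the 84.7th percentile of the table, and 2.64% of probe sets had a difference at least as high. Its probe set is of the _s_at kind, whose probes can match transcripts of more than 1 gene, and cross-matching to other actins was not tested.

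Actc1, the cardiac actin, had signals of 561, 494 and 318 in the mutant pools, against 87.6, 201 and 143 in the control pools. Both groups were spread widely, 1.76-fold in mutant and 2.30-fold in control pools, with mutant 3 and control 1 at the low ends. Means were 458 ± 125 (SD) in mutant and 144 ± 56.9 in control, n = 3 each. The log2 difference was 1.70 (SE 0.31), a fold of 3.25 (95% confidence interval 2.03 to 5.21), the largest of the 3 genes and the one with the widest interval. Its mean level lay at the 31.5th percentile of the table, below the 40th percentile that serves here as an alternative filter on low signals, while Myl9 at the 54.9th and Acta2 passed that filter. Detection calls were not used here, so it is not known whether the control pools read above background for this probe set. Of all probe sets, 0.128% had a difference at least as high.

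**Figure D2:**
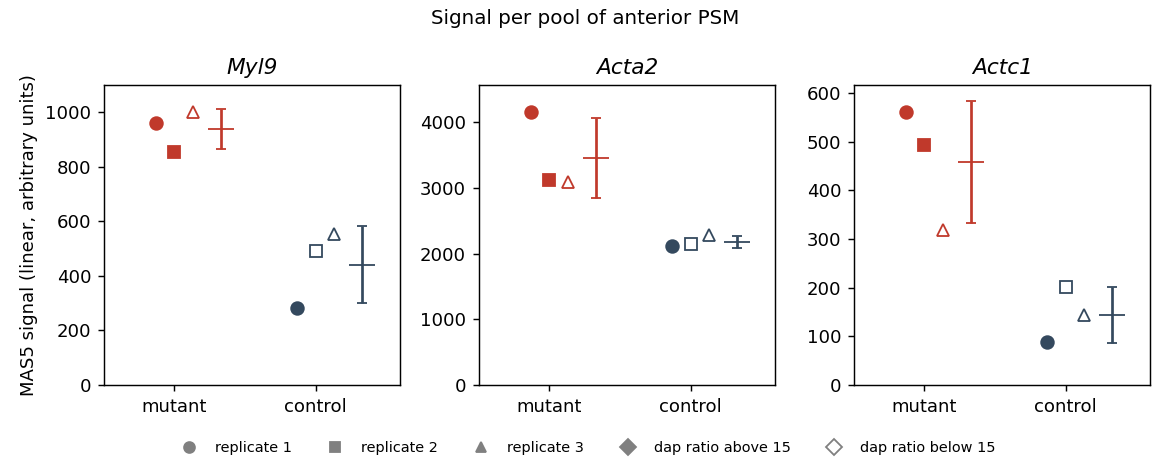
Linear MAS5 signal of Myl9, Acta2 and Actc1 in the 3 mutant pools (red) and the 3 control pools (dark), with symbols for the replicate number, filled symbols for high-ratio arrays, and the mean with its SD (n = 3) as bars. In each panel all mutant pools lie above all control pools; control 1 is the low control of Myl9 (281) and Actc1 (87.6), and mutant 1 the high pool of Acta2 (4152).

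Control 1 gave the lowest signal of all 6 arrays for each of the 3 genes. Without it the log2 difference was 0.85 for Myl9, 0.63 for Acta2 and 1.39 for Actc1. Over the 6 fits that left out 1 array, the difference ranged over 0.85 to 1.33 for Myl9, 0.51 to 0.73 for Acta2 and 1.39 to 1.98 for Actc1. The lowest of these values for Acta2 was the one without mutant 1. Within the high-ratio arrays, which are 2 mutant pools and 1 control pool, the difference was 1.68 for Myl9, 0.77 for Acta2 and 2.57 for Actc1. Within the other 3 arrays, 1 mutant pool and 2 control pools, it was 0.94, 0.48 and 0.90 in the same order. All 3 genes therefore had the larger difference among high-ratio arrays, and Actc1 differed most between the sets. The control pool of the high-ratio set is control 1, so the ratio and the low reading of that array cannot be told apart. With the ratio as a block in the fit, the values were 1.31, 0.63 and 1.74. The part of the spike-in ratio in these differences was not tested.

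**Figure D3:**
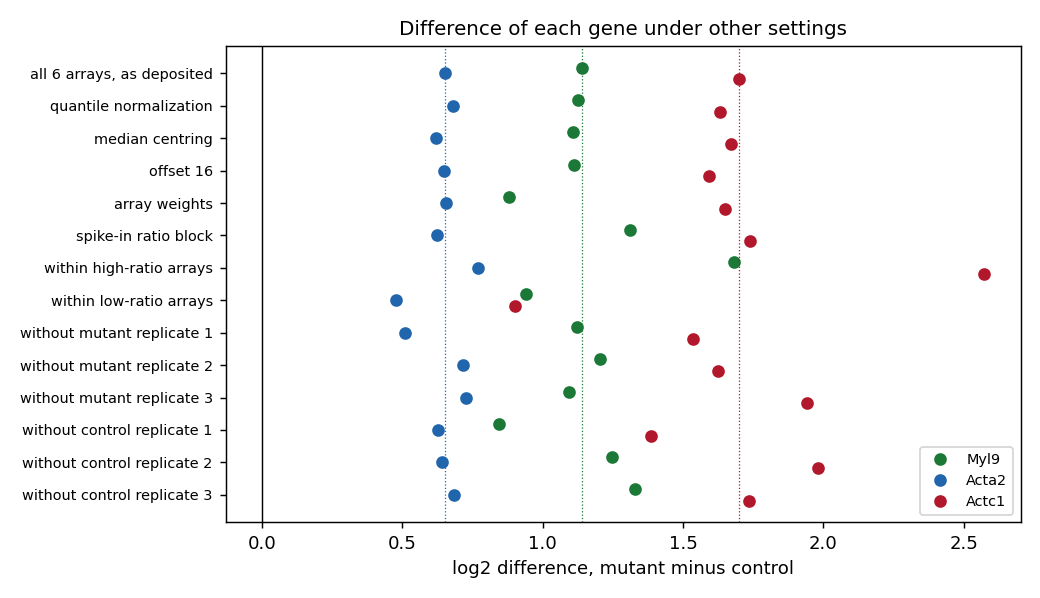
Log2 difference (mutant minus control) of Myl9, Acta2 and Actc1 for all 6 arrays as deposited (dotted lines), under other scalings and offsets, within the sets of arrays with like dap ratio, and with each array left out. Every point lies above 0, which leaving out arrays could not change, because every mutant pool lay above every control pool. Acta2 stays between 0.48 and 0.77, while Actc1 runs between 0.90 and 2.57.

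In the fit by limma over all 19551 probe sets with Benjamini-Hochberg adjustment, 47 were called higher in mutant PSM, 0.24% of those tested, and 62 lower, 0.317%. That fit also holds Myl9, Acta2 and Actc1, whose own p-values are not used because the genes were chosen on the same contrast.

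No measured gene of the smooth muscle contractile list passed the test. Of 23 genes listed for the smooth muscle contractile apparatus 15 were in the table, and 0 were called higher or lower by limma (2 with an unadjusted p under 0.05), with 11 positive differences and a median of 0.13. That median was 0.028 without mutant 1, 0.041 without control 1, 0.078 without mutant 3 and 0.019 with the filter on low signals. Over all 10290 genes, each by its brightest probe set, 0.34% were called higher and 0.466% lower, and the median difference was 0.02. The groups did not overlap, with mutant above, for 2 of the 15, Cnn2 and Tpm1, against 11.8% of all genes, and with mutant below for 0, against 9.49%. Cnn2, a calponin that binds actin, had signals of 3120, 2813 and 3369 in mutant pools and 1338, 2060 and 2302 in control pools. Its log2 difference was 0.74 (SE 0.18) and its adjusted p by limma 0.116. Tpm1, a tropomyosin that lies along actin filaments (named after its values were seen), had 0.41 (adjusted p by limma = 0.236). With the spike-in ratio block both were called, and with the replicate number as a block Cnn2 was. The brightest genes of the list were Cnn3 (−0.11), the cross-linker Actn1 (−0.09) and caldesmon, Cald1 (−0.10), and their groups overlapped. The markers Tagln, Cnn1, Myh11, Des and Actg2 were not analysed here.

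The sarcomere list is thin in this table: 5 of 34 genes were measured, all 5 below the 40th percentile of level, and 0 passed by limma (1 with an unadjusted p under 0.05). Tnnc1, the troponin C of heart and slow muscle, had 231, 217 and 271 in mutant pools and 155, 203 and 146 in control pools. The groups did not overlap, but the log2 difference of 0.52 (SE 0.20) did not pass (adjusted p by limma = 0.299). Myl3 had 0.26 and Myl1 −0.10, with overlapping groups. The skeletal actin Acta1, named after its values were seen, had 0.25 (SE 0.23). The median of the 5 was 0.26, and it was 0.42 without control 1.

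Genes that form and regulate actomyosin in most cells had a median of 0.03, and 0 of 22 measured passed by limma (2 with an unadjusted p under 0.05). Their brightest members were the cytoplasmic actins Actg1 and Actb, with log2 differences of 0.01 (95% confidence interval −0.22 to 0.24) and 0.09 (−0.14 to 0.31), and the actin-severing protein Cfl1 with 0.02 (−0.18 to 0.22). The other myosin regulatory light chains Myl12a and Myl12b, named after their values were seen, had 0.14 (SE 0.10) and −0.05 (SE 0.11), with overlapping groups. Tpm4, a tropomyosin of non-muscle cells (named after its values were seen), had 7229, 7940 and 8369 in mutant pools and 12937, 11020 and 10492 in control pools. Its difference was −0.55 (SE 0.11, adjusted p by limma = 0.0601), and it was called lower with quantile normalization, with array weights, with the spike-in ratio block and without mutant 3.

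Of 24 genes listed for SRF, its cofactors and related pathways 19 were measured, 0 passed by limma (2 with an unadjusted p under 0.05), and the median was −0.01. Srf itself had 861, 772 and 873 in mutant pools and 580, 936 and 915 in control pools, a difference of 0.08 (95% confidence interval −0.34 to 0.49). Mrtfa had 0.01 (SE 0.26) and Mrtfb −0.11 (SE 0.12). These 3 were named after their values were seen. The brightest genes of the list were Yap1 (−0.10), a coactivator of the Hippo pathway, the TGF-beta receptor Tgfbr1 (−0.23) and Tead1 (−0.13), the DNA-binding partner of Yap1. The mutant pools lay below the control pools, without overlap, for Yap1 and Tgfbr1 and in all for 4 of the 19 genes, against 9.49% of all genes, and above them for 2, Ccn1 and Tead4 (both named after its values were seen), against 11.8%. Ccn1, a matrix protein gene known as a target of SRF and of Yap1 (named after its values were seen), had 909.7, 764 and 917 in mutant pools and 521, 586 and 607 in control pools. The groups did not overlap, and the difference was 0.59 (SE 0.14, adjusted p by limma = 0.104). It was called with array weights and with the spike-in ratio block.

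Of 14 myogenic regulators 5 were measured and 1 rose, against 0.34% of all genes. It was Pax3, which marks the dorsal part of the somite and muscle precursors that migrate from it. Pax3 had 2 probe sets, of which the brighter is described and the other is not given here. Pax3 had 773, 642 and 667 in mutant pools and 312, 365 and 407 in control pools, with a log2 difference of 0.94 (SE 0.16, adjusted p by limma = 0.0299). The call was lost without control 2, control 3, mutant 1 or mutant 2 and without the intensity trend. Met, the receptor of hepatocyte growth factor on migrating muscle precursors (named after its values were seen), had 497, 501 and 461 in mutant pools and 382, 299 and 324 in control pools, without overlap, and a difference of 0.54 (SE 0.16, adjusted p by limma = 0.170), which was called with array weights. Six4 had −0.08 and Meox1, a factor of the somite, −0.04, and the groups overlapped. The median of the 5 was 0.02. The factors Myf5, Myod1 and Myog, which set the muscle fate, were not analysed here.

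**Figure D4:**
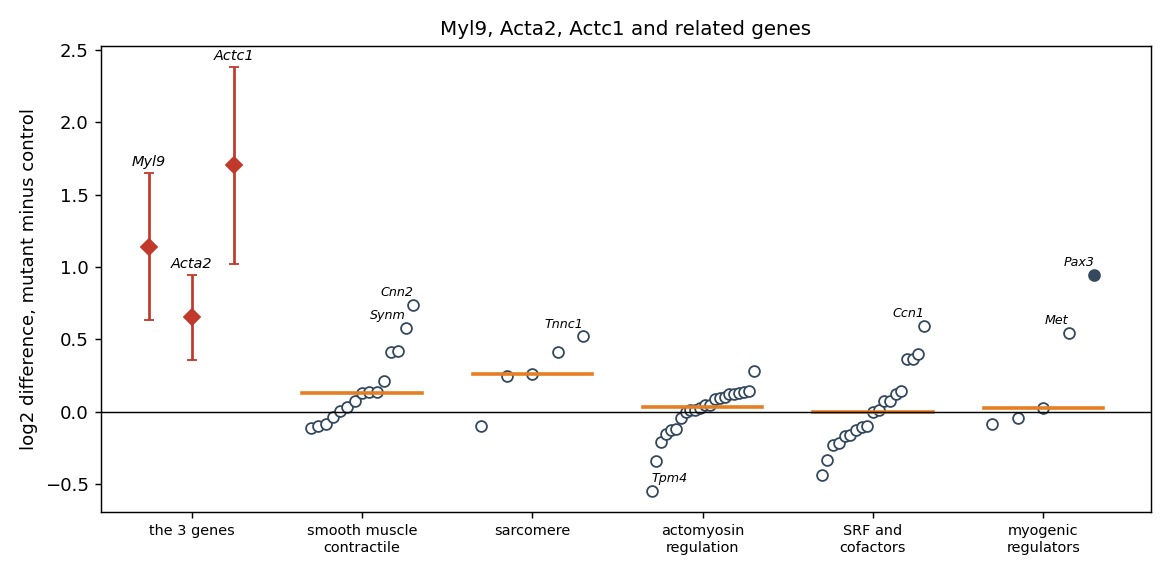
Log2 difference (mutant minus control) of Myl9, Acta2 and Actc1 (red, with 95% confidence intervals) beside the measured genes of 5 related lists, 1 circle per gene, filled where limma called the gene, with the list's median as an orange line. Medians run from −0.01 to 0.26; Pax3 is the filled circle, at 0.94.

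Heart and mural or smooth muscle cells hold these proteins, and few of their markers were measured. Of 14 heart markers 4 were measured, all with negative differences, and their summed signal was 2154 to 2649 in mutant and 3522 to 3657 in control pools. Hand2, also a lateral mesoderm marker, was called lower, as were 0.466% of all genes (−0.95, adjusted p by limma = 0.0264), while Isl1 had −0.39, Gata6 −0.21 and Tbx20 −0.03. The groups overlapped for Isl1, Gata6 and Tbx20. Hand2 had the highest signal of the 4 in every pool, and it alone had mutant pools below control pools. The heart markers Nkx2-5, Tnnt2, Myl7 and Myh6 were not analysed here. Of 11 markers of mural and smooth muscle cells 3 were measured, Pdgfrb (−0.22), Notch3 (0.19) and Rgs5 (−0.44), 0 passed by limma (1 with an unadjusted p under 0.05), and their summed signal of 2197 to 2899 in mutant overlapped the 2422 to 3025 in control pools.

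The summed signals of surface ectoderm, blood, endothelial and lateral mesoderm markers did not overlap between the groups, and those of neural tube and somite markers did. All 12 surface ectoderm markers had positive differences, as did 5440 of all 10290 genes. Of the 12, 2, Krt19 and Epcam, were called higher by limma, against 0.34% of all genes, and 11 had an unadjusted p under 0.05. For 11 the mutant pools lay above the control pools without overlap, against 11.8% of all genes. The summed signal of the 12 was 25130 to 26537 in mutant and 16697 to 18835 in control pools. Blood markers, of which 7 of 10 were measured, summed to 44586 to 62561 in mutant and 32059 to 44561 in control pools, with 0 called by limma (5 with an unadjusted p under 0.05). The ranges are close, the embryonic globins Hbb-y, Hbb-bh1 and Hba-x make up most of the sum, and Tal1 had −0.74, with mutant pools below control pools. Endothelial markers, 9 of 12 measured and 2, Kdr and Sox17, called lower (0.466% of all genes), summed to 6036 to 8884 in mutant and 11000 to 12045 in control pools. Emcn had 0.77, with mutant pools above control pools, and Cdh5 (−0.06) and Tek (−0.10) overlapped. Of 10 lateral mesoderm markers 6 were measured and 3, Prrx1, Foxf1 and Hand2 (also in the heart list), were called lower, against 0.466% of all genes. The 6 summed to 3639 to 4388 in mutant and 6145 to 6363 in control pools. The 3 not called had positive or no differences: Bmp4 0.62, Lhx1 0.43, with mutant pools above control pools, and Osr1 0.00. Neural tube markers, 7 of 10 measured and 0 called by limma (2 with an unadjusted p under 0.05), overlapped, at 10057 to 13373 in mutant and 9595 to 12028 in control pools. Of 11 somite markers 6 were measured and 1, Pax3 (also a myogenic regulator), was called higher by limma, against 0.34% of all genes (4 with an unadjusted p under 0.05). Their sums overlapped, at 3754 to 5590 in mutant and 4158 to 6213 in control pools, with Pax3 and Aldh1a2 (0.44) positive and Foxc1 (−0.48) and Foxc2 (−0.76) negative. The part of such shifts in the signals of Myl9, Acta2 and Actc1 was not tested.

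The 3 genes differed among themselves in their profiles over the 6 arrays. Likeness was measured as the root mean square difference over the 6 arrays between profiles of log2 signal, each centred on its own mean. It was 0.39 log2 units between Myl9 and Acta2, 0.45 between Myl9 and Actc1 and 0.65 between Acta2 and Actc1. This measure holds the size of the mutant minus control difference and not only the order of the arrays. Acta2 and Actc1, the pair farthest apart, also had the widest gap between their differences (−1.05 log2 units, Acta2 minus Actc1). Closeness was ranked among 7243 other genes above the 40th percentile of level. The closest to Myl9 were Babam2 (0.18), a subunit of a deubiquitinating complex, Npnt (0.18), the integrin ligand nephronectin, Perp (0.21), a desmosome gene, and Cnn2 (0.21). Perp is also in the surface ectoderm list and Cnn2 in the smooth muscle list. Control 1 was the lowest array for all 4. Babam2, for example, had 622, 628 and 574 in mutant pools and 220.4, 398 and 342 in control pools.

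The closest to Acta2 were Cep170b (0.07), Ikbip (0.07), Reep5 (0.07), a shaping protein of the endoplasmic reticulum, and Ctsz (0.08), the protease cathepsin Z. Each of them had mutant 1 as its highest pool and control pools close to each other, with log2 differences of 0.58 to 0.64, and adjusted p by limma was 0.0994 to 0.13. Actc1 had no profile as near to it among these candidates. Closest were Hebp1 (0.32), a heme-binding protein, Mt2 (0.34), a metallothionein, Capzb (0.43), the beta subunit of the actin capping protein, and Babam2 (0.43). Actc1 itself, at the 31.5th percentile, lies below the 40th percentile set for candidates, so genes at its own level were not searched. Of all probe sets 0.128% had a difference at least as high as its 1.70, so few could come near it. For these reasons its distances cannot be set against those of Acta2. Mt2 had 4157, 2612 and 1544 in mutant pools and 490.2, 695 and 873 in control pools, so that mutant 3 was its lowest mutant pool and control 1 its lowest control pool, as in Actc1. Its difference was 1.94 (SE 0.32, adjusted p by limma = 0.0289). Capzb is measured by more probe sets than the one that came close. Since the genotype parts all these profiles, likeness holds the genotype difference as well as the scatter between pools.

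**Figure D5:**
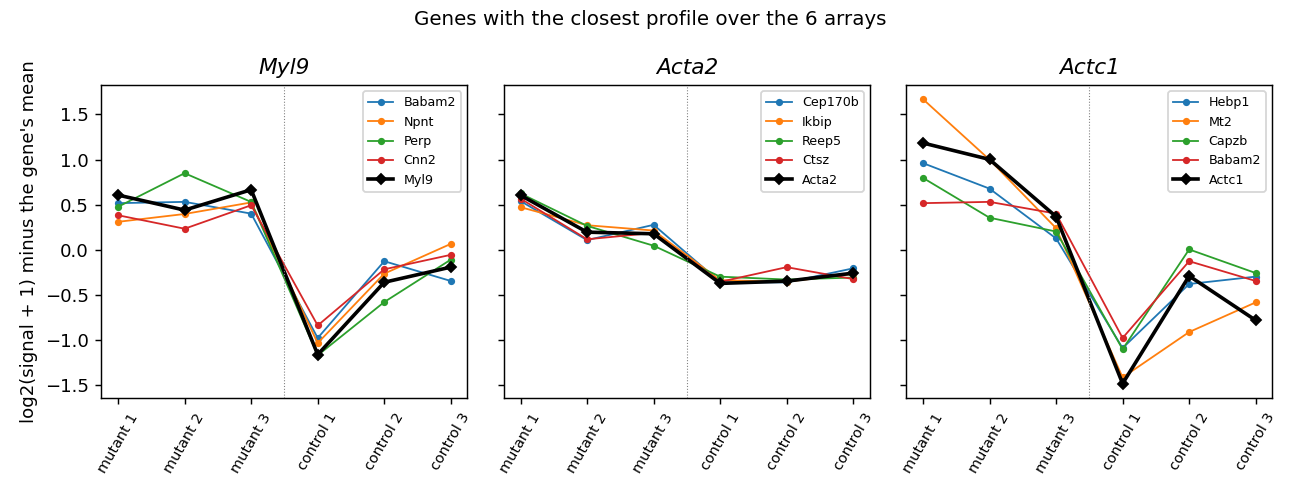
Log2(signal + 1) minus the gene's own mean on the 6 arrays, mutant pools left of the dotted line and control pools right of it, for Myl9, Acta2 and Actc1 (black) and the 4 genes with the closest profile to each (colours). Lines join the arrays of a gene, and replicates have no order; the profiles near Myl9 dip at control 1, those near Acta2 peak at mutant 1, and those near Actc1 are farther from it (0.32 to 0.43 log2 units).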

How the data were processed

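Expression was measured on 6 Affymetrix arrays, 3 mutant and 3 control pools. The authors deposited 1 linear intensity per probe set and array; the tools listed per the submitters' processing notes are MAS5 and Affymetrix Expression Console, and the scaling target, versions and genome build are not given in the sources used here. The authors' scaling was kept. Of 19606 probe sets 55 were array controls; of the others 17348 had 1 gene symbol, 494 several and 1709 none in the platform's annotation.

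Log2(signal + 1) was compared, mutant minus control, by limma (version 3.58.1, R 4.3.3) with an intensity trend, two-sided, over all 19551 probe sets without a filter on low signals, and adjusted p under 0.05 (Benjamini-Hochberg) was called. The fit was tried on simulated data with independent noise in every value. That simulation had no effect shared across an array, so it cannot speak to such effects here. The 3 genes, the lists and the alternatives, spike-in ratio set included, were chosen with earlier results of these data known. Named genes were the called genes and the 3 brightest of each pathway list, up to 3 of the brightest per cell type list, and the 4 closest profiles per gene among probe sets at or above the 40th percentile. Pathway genes outside the rule are marked, and cell type markers beyond it were named after their values were seen. The labels call the pools biological replicates. P-values by limma set the mutant minus control difference against the spread between these pools, with the variance moderated across all probe sets. The number of arrays limits the precision. Alternatives changed the scaling, offset, filter, variance model, blocks and the arrays used.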

Additional observations from a re-analysis of the deposited data

How the results depend on the processing

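The log2 differences of Myl9, Acta2 and Actc1 were positive under all 15 alternatives tried for each. With arrays left out the sign could not change, because every mutant pool lay above every control pool. The intensity trend does not enter the differences. They moved by less than the SD between pools, except within the sets of like dap ratio: 1.68 for Myl9 within the high-ratio arrays, and 2.57 and 0.90 for Actc1 within the high-ratio and the low-ratio arrays. The cause was not tested. Replicate numbers did not pair the pools: the residuals of equal numbers correlated at 0.18, −0.27 and 0.27, and 2 of 6 arrays were closest to their own number. With the replicate number as a block, which leaves the 3 differences as they are, 113 probe sets were called higher and 105 lower, against 47 and 62, and 1 smooth muscle gene was higher.

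Probe sets called higher and lower were 469 and 433 with array weights, 341 and 339 with the spike-in ratio block, and 25 and 22 without the intensity trend. The filter at the 40th percentile left 29 higher. Leaving out 1 array gave 19 to 100 higher and 14 to 106 lower, the lowest without mutant 1 and the highest without mutant 3, with 76 and 99 without control 1.

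Among the lists, actomyosin genes called lower were 1 with quantile normalization, array weights or the spike-in ratio block, and 0 to 1 with an array left out; SRF genes called higher were 1 with array weights or the spike-in ratio block; smooth muscle genes called higher were 2 with that block; myogenic genes called higher were 2 with array weights, 0 without the intensity trend and 0 to 1 with an array left out. The smooth muscle median was 0.053 with quantile normalization, 0.019 with the filter, 0.067 with array weights, 0.17 with the spike-in ratio block and 0.028 to 0.17 with an array left out. The SRF median was −0.11 with the filter and −0.15 to 0.13 with an array left out, the myogenic median −0.069 to 0.21 and the sarcomere median 0.21 to 0.42. With the filter no sarcomere gene was left, and Actc1 was removed. Detection above background was not assessed, which limits what low signals such as those of Actc1 in control pools can show.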
